A study of Mus musculus with 4 samples.

Results

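The glycolysis and pentose phosphate genes are 36 genes chosen by their place in these pathways out of the 32285 genes listed for each cell. They comprise 5 carriers of glucose or lactate, 17 enzymes that lead from glucose to lactate, 2 regulators of phosphofructokinase, 5 genes of the step between pyruvate and the mitochondrion, and 7 pentose phosphate enzymes. Glycolysis splits glucose into pyruvate and makes ATP and NADH in the cytosol, and lactate dehydrogenase turns pyruvate into lactate so that NADH is oxidised again. The pentose phosphate pathway branches off after the first step. Its oxidative arm makes NADPH, which feeds both glutathione recycling and the NADPH oxidase of phagocytes, and its other arm makes ribose and passes carbon back to glycolysis. Neutrophils hold few mitochondria and are known to draw most of their ATP from glycolysis.

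The cells were myeloid-derived suppressor cells (MDSCs), grown from mouse bone marrow under the cytokines GM-CSF and IL-6, each at 40 ng/mL, and sorted on day 4 as live CD11b+ cells for single-cell RNA-seq. The design compared isoproterenol (ISO, 10 µM), an agonist of all β-adrenergic receptors given daily from the start of culture, with PBS, in WT cells and in cells labelled B2AR KO. WT cells came from C57BL/6J mice and the mutant line is on a C57BL/6 background, and the cultures carried multiplexing tags and were pooled before capture. The number of mice behind a culture is not given in the sources used here. Each of the 4 groups, WT+PBS, WT+ISO, B2AR KO+PBS and B2AR KO+ISO, is 1 library, so no difference between groups has a replicate and none was tested. The 95% intervals, given in parentheses after a ratio, hold the error of counting and no difference between cultures.

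B2AR KO+PBS and B2AR KO+ISO mean the libraries that carry these labels, and no check of the labels is reported here. Levels are given as UMIs (unique molecular identifiers, each standing for 1 captured transcript) per 1000000 UMIs of the library (CPM). After a filter on cells the libraries held 2039 to 2790 cells and 19357824 to 29400468 UMIs, with medians of 7484 to 10252 UMIs per cell, and no cell barcode was shared. Itgam, the gene of CD11b, was found in 85.2 to 88.4% of cells.

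Cells were clustered without the 36 genes and without a wider list of pathway genes, so that the clusters did not rest on them. An azurophil-granule neutrophil progenitor-like cluster (1524 cells, led by Nkg7, Mpo and Elane), a specific-granule neutrophil-like cluster (1655 cells, Ltf) and a mature neutrophil-like cluster (1432 cells, Retnlg and Mmp9) stood beside a macrophage-like cluster (1795 cells, Mrc1 and C1qb) and a dendritic cell-like cluster of 104 cells, which is left out of the counts over 6 clusters. In the macrophage-like cluster 4 of the 7 macrophage markers were found in at least 10% of cells, and so were 5 of the 6 monocyte markers. The azurophil-granule progenitor-like cluster also held the specific-granule markers Camp and Ngp, at 50.1 and 49.2% of their level in the specific-granule cluster. A cluster led by Gpnmb and Atp6v0d2 (1761 cells, median 3026 UMIs) and one led by Matn2 (1032 cells, median 20337.5 UMIs) stayed unnamed. The shares of the clusters differed between libraries. The macrophage-like cluster took 16.7% of WT+PBS, 9.45% of WT+ISO, 26.6% of B2AR KO+PBS and 23.1% of B2AR KO+ISO, and the azurophil-granule progenitor-like cluster 16.02, 25.6, 11.9 and 12.7%. A level over all cells of a library moves with these shares, so ratios are also given with every cluster held at the same weight in each library (fixed weights).

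With ISO in WT cells the transcripts of glycolysis enzymes were lower and those of pentose phosphate enzymes higher. Transcripts do not give the amount or activity of an enzyme. By other assays, the study reported no significant difference in glycolytic intermediates and no difference in glycolytic rate between WT+ISO and WT+PBS. The sum of the 17 glycolysis enzymes was 10084 CPM in WT+PBS, 8680.5 in WT+ISO, 11971 in B2AR KO+PBS and 11900.4 in B2AR KO+ISO. The log2 ratio of ISO over PBS was -0.22 (-0.22 to -0.21) in WT and -0.0086 (-0.016 to -0.00095) in the libraries labelled B2AR KO, and the WT ratio minus the other was -0.21 (-0.22 to -0.20). The 7 pentose phosphate enzymes summed to 1798 CPM in WT+PBS, 2020.1 in WT+ISO, 1794 in B2AR KO+PBS and 1877 in B2AR KO+ISO. Their log2 ratio was 0.17 (0.15 to 0.19) in WT and 0.066 (0.046 to 0.085) in the libraries labelled B2AR KO. The glycolysis ratio of the libraries labelled B2AR KO, close to 0, was above 0 under 6 of 9 alternatives. Over all cells, glycolysis transcripts were thus lowest in WT+ISO and pentose phosphate transcripts highest there. For the pentose phosphate sum, the log2 ratio of B2AR KO+ISO over WT+ISO was -0.11 over all cells. With fixed weights it was -0.030 (-0.050 to -0.010). It was below 0 in 6 of 6 clusters, but with 1 interval below 0.

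The direction was spread over many genes and the differences were small. Among genes with at least 100 UMIs over both WT libraries, 15 of the 17 glycolysis enzymes lay below 0 (median log2 ratio -0.22) and 7 of 7 pentose phosphate enzymes lay above 0 (median 0.18), where the median of all 10771 genes so measured was -0.016. Pgls, at 0.0015, was above 0 by less than its counting error. Of the 36 genes 35 had enough UMIs, Pdk2 being the exception, and a log2 ratio of at least 0.5 in size was reached by Pfkp and Pdk1, both lower, and by 0 genes in the other direction. Over all genes 6.81% were lower and 1.76% higher by that measure, so the count of 2 among 35 lies near the background. With fixed weights the median of the 35 genes was -0.051, and 0 of 35 were past 0.5 in either direction, against 2.7% of all genes lower and 1.92% higher. The direction of the 2 groups held there for 15 of 17 glycolysis and 6 of 7 pentose phosphate enzymes. Their medians were -0.17 and 0.12, where that of all genes was 0.025. Tkt, counted among the 6, lay at 0.022 (-0.011 to 0.055), under the median of all genes, and the interval of Rpe also included 0. Between the libraries labelled B2AR KO, 34 of the 36 genes had enough UMIs, 0 of them passed 0.5 in either direction (1.6% of all genes lower, 1.04% higher, and with fixed weights 1.09% and 1.07%), and their median was 0.020.

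**Figure D1:**
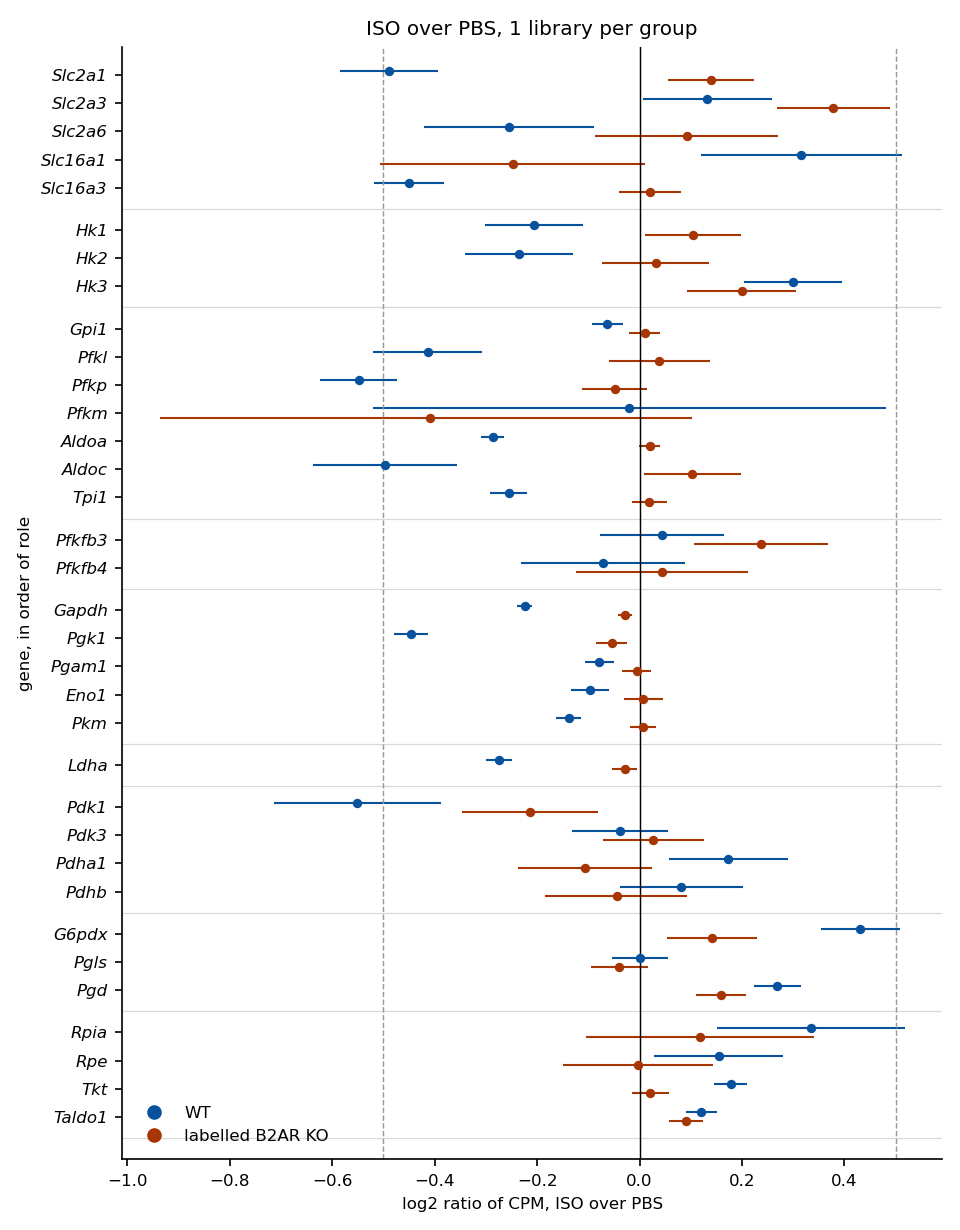
Log2 ratio of CPM, ISO over PBS, for 34 of the 36 genes in order of role, in WT (blue) and in the libraries labelled B2AR KO (brown). Points are ratios of 1 library to 1 library, lines are 95% counting intervals and dashed lines mark 0.5 in size. Ldhb and Pdk2, with few UMIs, are left out. The blue points of the glycolysis enzymes lie below 0 except that of Hk3, and those of the pentose phosphate enzymes at or above 0.

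The same held within the 6 clusters, though not in every part of them on the finer clustering given below. In WT the sum of glycolysis enzymes was lower with ISO in 6 of 6 clusters, each with an interval below 0. The log2 ratios ran from -0.073 in the mature neutrophil-like to -0.25 in the Gpnmb-led cluster of 1761 cells. The pentose phosphate sum was higher in 6 of 6, from 0.035 in the azurophil-granule progenitor-like to 0.27 in the Gpnmb-led cluster, each with an interval above 0. Between the libraries labelled B2AR KO the glycolysis sum lay above 0 in 4 of 6 clusters and the range was -0.046 to 0.13. The pentose phosphate sum there was above 0 in 4 of 6, with 0.14 in the macrophage-like and 0.23 in the Gpnmb-led cluster. Across all 6 clusters in WT, 8 of the 35 genes were below 0 in each (Slc2a1, Slc16a3, Pfkl, Aldoa, Tpi1, Gapdh, Pgk1 and Ldha), as were 4.35% of all genes. Hk3, G6pdx, Pgd and Rpe, 4 of the 35, were above 0 in each, as were 6.29% of all genes. In the other pair of libraries Hk3 alone among 34 genes was above 0 in each cluster (2.44% of all genes) and 0 of 34 were below 0 in each (2.53%). The genes behind these shares were not matched to the members on depth.

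**Figure D2:**
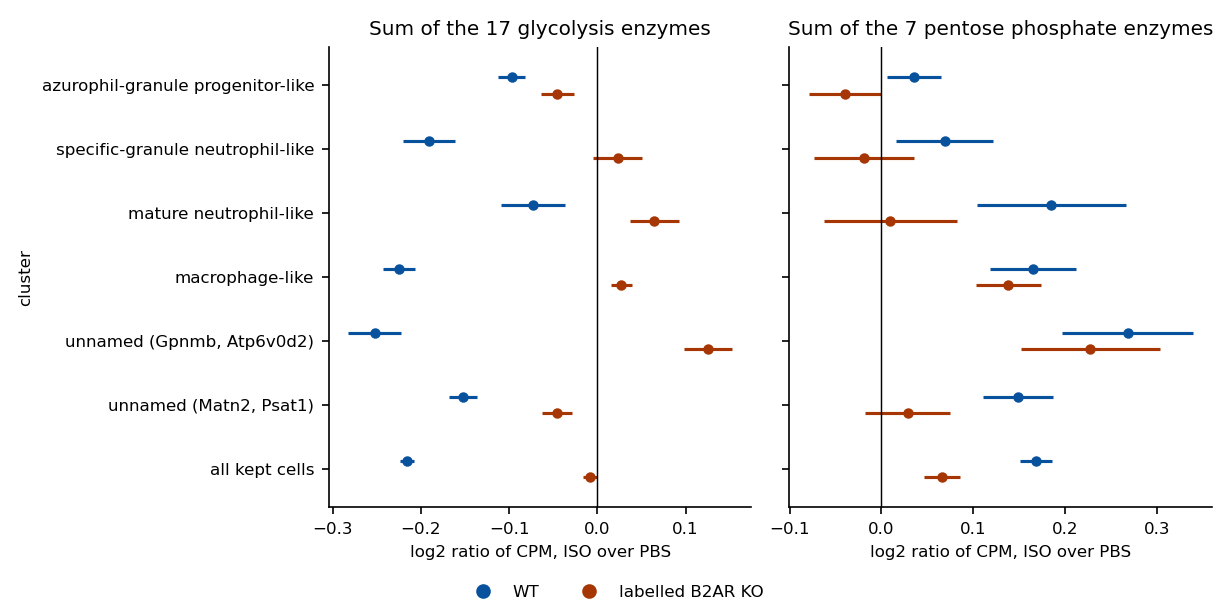
Log2 ratio of the summed CPM of the 17 glycolysis enzymes (left) and the 7 pentose phosphate enzymes (right), ISO over PBS, in each of 6 clusters and over all kept cells, with 95% counting intervals. In WT (blue) each glycolysis point lies left of 0 and each pentose phosphate point right of 0. The points of the libraries labelled B2AR KO (brown) lie on both sides of 0 in both panels.

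Promoters are shown for 5 chosen members that were lower with ISO in WT, 2 of them carriers, and for G6pdx, which was higher there. Each is the 250 bases before the start site that RefSeq lists on build GRCm38.p6, read 5′ to 3′ on the strand of the gene, for Slc2a1 (chr4:119108495-119108744 on the plus strand), Slc16a3 (chr11:120948817-120949066 on the plus strand), Pfkp (chr13:6648772-6649021 on the minus strand), Pgk1 (chrX:106186850-106187099 on the plus strand), Ldha (chr7:46845554-46845803 on the plus strand, the first of 2 listed windows) and G6pdx (chrX:74428881-74429130 on the minus strand). In the first 5, capitals mark ACGTG on either strand, a form of the core of the hypoxia response element that HIF-1 binds. In G6pdx they mark TGACNNNGC on either strand, the core of the antioxidant response element that Nrf2 binds.
Slc2a1: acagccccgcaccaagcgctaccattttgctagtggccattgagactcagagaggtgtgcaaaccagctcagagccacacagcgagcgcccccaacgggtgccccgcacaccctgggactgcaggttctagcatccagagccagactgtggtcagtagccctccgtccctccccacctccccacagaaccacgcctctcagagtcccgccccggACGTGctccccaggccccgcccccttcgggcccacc
Slc16a3: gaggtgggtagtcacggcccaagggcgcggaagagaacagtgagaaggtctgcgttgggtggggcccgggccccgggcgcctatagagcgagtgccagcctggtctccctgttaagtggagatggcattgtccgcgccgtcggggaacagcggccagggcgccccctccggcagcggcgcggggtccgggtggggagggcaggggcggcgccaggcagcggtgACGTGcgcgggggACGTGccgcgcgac
Pfkp: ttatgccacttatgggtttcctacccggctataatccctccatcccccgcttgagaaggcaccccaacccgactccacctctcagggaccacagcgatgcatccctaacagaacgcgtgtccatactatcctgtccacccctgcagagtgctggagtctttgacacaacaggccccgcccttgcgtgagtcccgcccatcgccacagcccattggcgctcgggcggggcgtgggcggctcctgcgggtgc
Pgk1: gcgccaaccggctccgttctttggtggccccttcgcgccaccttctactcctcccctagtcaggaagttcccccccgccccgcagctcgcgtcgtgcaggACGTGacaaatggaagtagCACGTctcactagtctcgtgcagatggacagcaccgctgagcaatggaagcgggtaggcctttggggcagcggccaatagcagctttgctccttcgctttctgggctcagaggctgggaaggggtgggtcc
Ldha: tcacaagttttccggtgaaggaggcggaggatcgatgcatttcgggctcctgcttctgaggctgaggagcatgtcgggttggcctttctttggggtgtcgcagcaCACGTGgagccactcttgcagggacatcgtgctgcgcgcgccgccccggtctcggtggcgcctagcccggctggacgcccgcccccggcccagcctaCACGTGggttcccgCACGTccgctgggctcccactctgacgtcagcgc
G6pdx: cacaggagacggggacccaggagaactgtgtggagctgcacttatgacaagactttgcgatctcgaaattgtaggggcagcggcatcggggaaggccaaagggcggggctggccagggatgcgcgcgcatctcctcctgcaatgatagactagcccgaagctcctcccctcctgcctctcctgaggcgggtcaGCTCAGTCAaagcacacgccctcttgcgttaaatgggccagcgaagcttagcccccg
The letters ACGTG were found once for Slc2a1, at 2 places each for Slc16a3 and Pgk1, in 5 matches for Ldha, of which 4 are both strands of 2 palindromic places, and not in the window of Pfkp. The Ldha window shown was picked because it held more of the motifs counted here, and the other Ldha window held no ACGTG. RefSeq listed windows for 35 of the 36 genes, Slc2a3 being the exception. At least 1 window held ACGTG for 8 of 17 glycolysis enzymes and 0 of 7 pentose phosphate enzymes, against 18.5% of 27025 genes, and for 15 of the 35 members. These 15 included Slc16a1, Hk3, Pfkfb3 and Pdhb, whose WT ratios with ISO lay above 0. Members without ACGTG included Pdk1, Aldoc, Pfkl, Tpi1 and Gapdh, which were lower with ISO in WT. The promoters shown thus do not stand for all members. A gene with more windows has more places for a match. Counted by window, ACGTG was in 35.7% of 28 windows of glycolysis enzymes and 0 of 8 of pentose phosphate enzymes, against 16.6% of 32851. TGACNNNGC was held by 1 of the 7 pentose phosphate enzymes, namely G6pdx, and 2 of the 17 glycolysis enzymes, against 11.5% of all genes. TGACG, with which the cAMP response element begins, was held by 2 of 7 and 2 of 17, against 19.8%. ACGTG and TGACG overlap in the letters TGACGTG, as in the Slc16a3 window. Other forms of the hypoxia response element core, such as GCGTG, were not counted. A window without ACGTG, as that of Pfkp, is thus not shown to lack the core. A match is a description of the letters and does not show that a factor binds there.

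The carriers are the doors of the pathway. Slc2a1, which encodes the glucose carrier GLUT1, had 79.3 CPM in WT+PBS, 56.5 in WT+ISO, 94.2 in B2AR KO+PBS and 104 in B2AR KO+ISO. It was lowest in WT+ISO and highest in B2AR KO+ISO. The log2 ratio of ISO over PBS was -0.49 (-0.59 to -0.39) in WT and 0.14 (0.056 to 0.22) in the libraries labelled B2AR KO. With fixed weights the WT ratio was -0.27, and it was below 0 in 6 of 6 clusters, from -0.35 in the Matn2-led to -0.074 in the azurophil-granule progenitor-like cluster. Slc16a3, the gene of the lactate exporter MCT4, had 151 CPM in WT+PBS, 110.2 in WT+ISO, 185 in B2AR KO+PBS and 188 in B2AR KO+ISO, and its WT ratio of -0.45 (-0.52 to -0.38) was likewise below 0 in 6 of 6 clusters, while the ratio in the libraries labelled B2AR KO was 0.020.

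Slc2a3, which encodes the high-affinity glucose carrier GLUT3, changed sign with the weighting of cells. It had 37.02 CPM in WT+PBS, 40.6 in WT+ISO, 50.7 in B2AR KO+PBS and 65.9 in B2AR KO+ISO, and the ratio over all WT cells was 0.13 (0.0065 to 0.26). Within clusters it was below 0 in 5 of 6, with -0.73 in the mature neutrophil-like cluster (WT+PBS 146 CPM, WT+ISO 88.1 CPM), and the ratio with fixed weights was -0.23. The clusters where Slc2a3 was highest took larger shares of WT+ISO than of WT+PBS. Slc2a6, which encodes the lysosomal carrier GLUT6, had 24.2, 20.3, 21.6 and 22.99 CPM in the same order of libraries, with a WT ratio of -0.25 over all cells and 0.11 with fixed weights. Slc16a1, the gene of the lactate and pyruvate carrier MCT1, went the other way from MCT4, with 14.7, 18.3, 12.01 and 10.1 CPM and ratios of 0.32 (0.12 to 0.51) in WT and -0.25 (-0.51 to 0.011) in the libraries labelled B2AR KO. With fixed weights the WT ratio of Slc16a1 was 0.31 (0.10 to 0.51). It was above 0 in 5 of 6 clusters, but 1 interval alone lay above 0. In the Mpo-led fine cluster WT+PBS had 35.5 CPM and WT+ISO 34.8 CPM.

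Hexokinases trap glucose in the cell, and the 3 genes did not move together with ISO in WT. Hk1 had 71.04, 61.6, 77.4 and 83.2 CPM in the order WT+PBS, WT+ISO, B2AR KO+PBS and B2AR KO+ISO, and Hk2 had 58.7, 49.9, 63.8 and 65.2 CPM. Both were lowest in WT+ISO, with WT ratios of -0.21 and -0.24. Hk3, a hexokinase of myeloid cells, had 60.7, 74.7, 57.5 and 65.97 CPM and was higher with ISO, by 0.30 (0.20 to 0.40) in WT and by 0.20 (0.092 to 0.31) in the libraries labelled B2AR KO. Hk3 took 31.9% (30.5 to 33.2%) of hexokinase UMIs in WT+PBS and 40.1% (38.8 to 41.4%) in WT+ISO. This share also followed the clusters, at 45.8% in the azurophil-granule progenitor-like, 45.8% in the specific-granule and 18.3% in the macrophage-like cluster, and with fixed weights the ratio of Hk3 was 0.12 in WT and 0.10 in the libraries labelled B2AR KO, where the interval of -0.0057 to 0.21 includes 0.

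Among the middle steps, Gpi1 isomerises glucose 6-phosphate, phosphofructokinase (Pfkl, Pfkp and Pfkm) commits the sugar to glycolysis, aldolase (Aldoa and Aldoc) splits it, and Tpi1 interconverts the products. Pfkp, the platelet type of phosphofructokinase, had 130.2 CPM in WT+PBS, 89.05 in WT+ISO, 178 in B2AR KO+PBS and 173 in B2AR KO+ISO. WT+ISO was lowest and both libraries labelled B2AR KO lay above both WT libraries. The WT ratio was -0.55 (-0.62 to -0.47), past 0.5 in size, and the ratio in the libraries labelled B2AR KO was -0.049. With fixed weights the WT ratio was -0.41. It was below 0 in 5 of 6 clusters, with -0.61 in the macrophage-like cluster, and was 0.028 in the azurophil-granule progenitor-like one.

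Pfkl, the liver type, had 62.9, 47.2, 72.3 and 74.3 CPM in the order WT+PBS, WT+ISO, B2AR KO+PBS and B2AR KO+ISO, with a WT ratio of -0.41 (-0.52 to -0.31). Pfkm, the muscle type, was counted by 49 to 96 UMIs per library, too few to place its WT ratio of -0.021 (-0.52 to 0.48). Aldoa had 1428, 1170.3, 1798 and 1823 CPM, with a WT ratio of -0.29 that was below 0 in 6 of 6 clusters. Aldoc, the brain type of aldolase, had 36.9, 26.2, 74.9 and 80.5 CPM, with ratios of -0.50 (-0.64 to -0.36) in WT and 0.10 (0.0079 to 0.20) in the libraries labelled B2AR KO. The fixed-weight WT ratio of Aldoc was -0.19. Within clusters it was below 0 in 4 of 6 and above 0 in 2, from -0.46 to 0.36, with 1 interval below 0 and 1 above. Tpi1 had 506, 424, 609 and 617 CPM and a WT ratio of -0.26, and Gpi1 had 679.6, 651, 782 and 787 CPM and a WT ratio of -0.063. With fixed weights these were -0.16 and -0.13. Of this group Pfkp, Aldoc and Pfkl were the members with WT ratios beyond 0.4 in size. Pfkfb3 and Pfkfb4, which set the level of a sugar phosphate that activates phosphofructokinase, had WT ratios of 0.043 (-0.078 to 0.16) and -0.071 (-0.23 to 0.089), or -0.037 and -0.18 with fixed weights, and Pfkfb3 was 0.24 (0.11 to 0.37) in the libraries labelled B2AR KO.

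The lower steps recover ATP. Pgk1, the kinase of the first of these ATP-yielding steps, had 631 CPM in WT+PBS, 463 in WT+ISO, 819 in B2AR KO+PBS and 788 in B2AR KO+ISO. WT+ISO was lowest and the libraries labelled B2AR KO were highest. Its WT ratio of -0.45 (-0.48 to -0.41) was below 0 in 6 of 6 clusters, from -0.52 in the specific-granule to -0.24 in the azurophil-granule progenitor-like cluster, and was -0.36 with fixed weights. In the libraries labelled B2AR KO the ratio was -0.055 (-0.084 to -0.025). Gapdh, the dehydrogenase that makes the NADH of glycolysis, had 3165, 2709.8, 3739 and 3664 CPM in the order WT+PBS, WT+ISO, B2AR KO+PBS and B2AR KO+ISO, and held 31.2% of the glycolysis UMIs. Its WT ratio was -0.22.

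Pgam1, Eno1 and Pkm, the mutase, enolase and pyruvate kinase that follow, were closer to 0, with WT ratios of -0.078 (-0.11 to -0.050), -0.096 (-0.13 to -0.059) and -0.14 (-0.16 to -0.11). With fixed weights that of Pgam1 was -0.044. Pkm had 983 CPM in WT+PBS, 893 in WT+ISO, 1144 in B2AR KO+PBS and 1149.7 in B2AR KO+ISO. Its fixed-weight WT ratio was -0.051, and within clusters it ran from -0.20 in the specific-granule to 0.073 in the mature neutrophil-like cluster. Reads of Eno1 and its near-identical copy Eno1b, which had 111 to 172 UMIs per library against 9345 to 13719 for Eno1, may be split between them. Ldha, which makes the main lactate dehydrogenase subunit here, had 1039 CPM in WT+PBS, 859 in WT+ISO, 1196 in B2AR KO+PBS and 1173 in B2AR KO+ISO, with a WT ratio of -0.27 (-0.30 to -0.25), below 0 in 6 of 6 clusters. Ldhb, the heart type, had 21 to 102 UMIs per library, at most 0.402% of lactate dehydrogenase UMIs.

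Pyruvate dehydrogenase takes pyruvate into the tricarboxylic acid cycle, and the Pdk kinases switch it off. Pdk1 had 28 CPM in WT+PBS, 19.1 in WT+ISO, 44.4 in B2AR KO+PBS and 38.3 in B2AR KO+ISO. It was lowest in WT+ISO and highest in B2AR KO+PBS. The ratio with ISO was -0.55 (-0.71 to -0.39) in WT, past 0.5 in size, and -0.21 (-0.35 to -0.082) in the libraries labelled B2AR KO, the same direction in both, and with fixed weights -0.32 and -0.16. Pdk3 had 70.5, 68.6, 71.6 and 72.99 CPM and a WT ratio of -0.038 (-0.13 to 0.056). Pdk2 had 10 to 16 UMIs per library and no ratio is read from it. Pdha1 and Pdhb, which encode the subunits of the dehydrogenase itself, had WT ratios of 0.17 (0.057 to 0.29) and 0.082 (-0.038 to 0.20) and ratios of -0.11 and -0.045 in the libraries labelled B2AR KO. Pdk1 and Pdha1 thus lay on opposite sides of 0 in WT, while the intervals of Pdhb and Pdk3 included 0. Pdk3 held 71.1% of the UMIs of the Pdk kinases in WT+PBS and 77.8% in WT+ISO.

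The oxidative arm opens with G6pdx, the glucose 6-phosphate dehydrogenase that makes the first NADPH. G6pdx had 89.8 CPM in WT+PBS, 121 in WT+ISO, 86.1 in B2AR KO+PBS and 95 in B2AR KO+ISO, and WT+ISO was highest. The ratio was 0.43 (0.35 to 0.51) in WT and 0.14 (0.054 to 0.23) in the libraries labelled B2AR KO, a difference of 0.29 (0.17 to 0.41). At fixed weights these ratios were 0.35 and 0.096. It was above 0 in 6 of 6 WT clusters, from 0.19 in the specific-granule to 0.84 in the mature neutrophil-like cluster, where WT+PBS had 79.7 CPM and WT+ISO 143 CPM. Pgd, the 6-phosphogluconate dehydrogenase that makes the other NADPH, had 271 CPM in WT+PBS, 327 in WT+ISO, 276 in B2AR KO+PBS and 308 in B2AR KO+ISO. Its ratios were 0.27 (0.22 to 0.31) in WT, above 0 in 6 of 6 clusters, and 0.16 (0.11 to 0.21) in the libraries labelled B2AR KO. Pgls, the lactonase between them, had 204, 204, 229 and 223 CPM in the same order, with a WT ratio of 0.0015 (-0.053 to 0.056).

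In the other arm, Tkt (transketolase) had 551, 624, 544 and 552 CPM in the order WT+PBS, WT+ISO, B2AR KO+PBS and B2AR KO+ISO, and a WT ratio of 0.18 (0.15 to 0.21). With fixed weights the ratio of Tkt was 0.022, and it was -0.022 in the azurophil-granule progenitor-like cluster, where Tkt was highest and whose share was larger in WT+ISO. Taldo1 (transaldolase) had 627, 682, 612 and 652 CPM, with a WT ratio of 0.12 and 0.12 with fixed weights. Rpia, the ribose 5-phosphate isomerase, had 16.8, 21.2, 13.8 and 14.98 CPM, and Rpe, the ribulose phosphate epimerase, 36.7, 40.9, 33.2 and 33.1 CPM. Their WT ratios were 0.33 (0.15 to 0.52) and 0.15 (0.029 to 0.28). With fixed weights they were 0.19 (0.0062 to 0.38) and 0.12 (-0.0067 to 0.25), the latter including 0. In the libraries labelled B2AR KO the intervals of Tkt, Rpia and Rpe included 0, and Taldo1 was 0.091 (0.058 to 0.12).

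**Figure D3:**
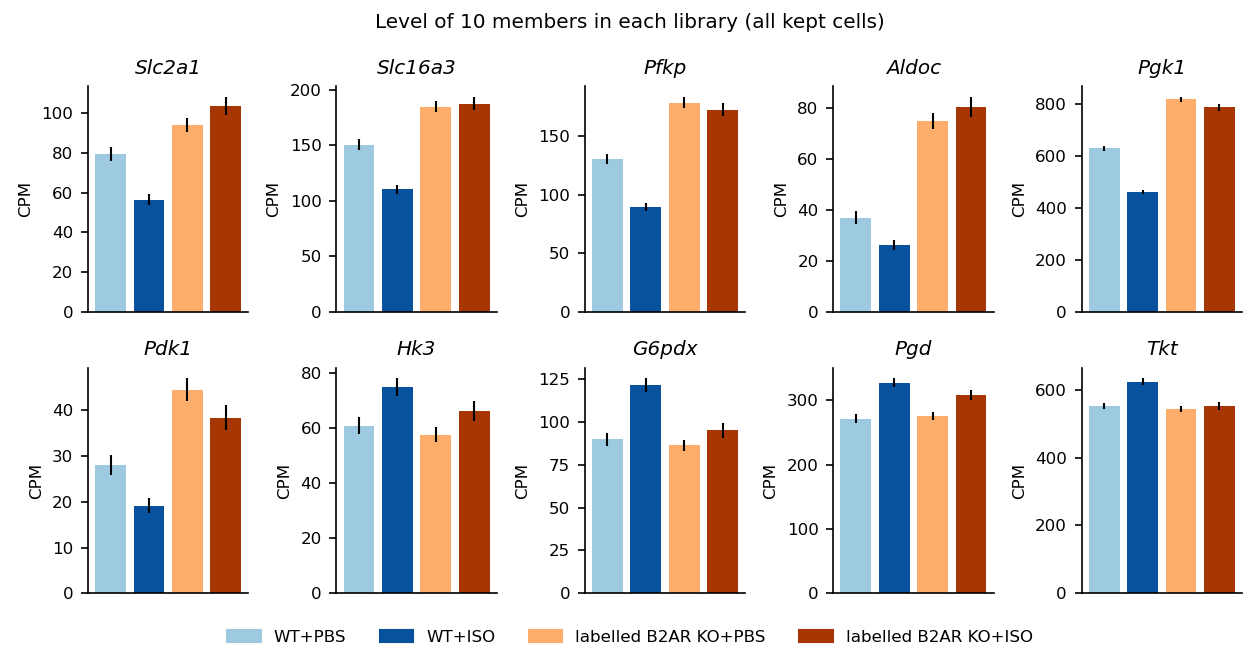
Level in CPM of 10 of the 36 genes in each of the 4 libraries, with 95% counting intervals as error bars and 1 library per bar. Slc2a1, Slc16a3, Pfkp, Aldoc, Pgk1 and Pdk1 are lowest in WT+ISO (dark blue) and higher in both libraries labelled B2AR KO than in either WT library. Hk3, G6pdx, Pgd and Tkt are highest in WT+ISO over all cells. With fixed weights the log2 ratio of B2AR KO+ISO over WT+ISO was -0.26 for G6pdx and -0.16 for Pgd. It was 0.022 (-0.082 to 0.13) for Hk3 and 0.047 (0.011 to 0.083) for Tkt, so Tkt was then not highest in WT+ISO.

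Without ISO, the library labelled B2AR KO held more glycolysis transcript than WT. This comparison shares WT+PBS with the ISO comparison in WT, and B2AR KO+PBS with that in the libraries labelled B2AR KO, so its values are not independent of theirs. The glycolysis sum had a log2 ratio of B2AR KO+PBS over WT+PBS of 0.25 (0.24 to 0.26), and the pentose phosphate sum one of -0.0030 (-0.021 to 0.015). Of 17 glycolysis enzymes 15 lay above 0 (median 0.20), where the median of all 10861 genes measured was -0.012, and of the 7 pentose phosphate enzymes 2 did. Past 0.5 were Aldoc at 1.02 (0.91 to 1.13) and Pdk1 at 0.67 (0.53 to 0.80), both higher, 2 of 35 genes where 3.97% of all genes were higher and 2.59% lower. With fixed weights the 2 genes stayed past 0.5, at 0.77 and 0.52, where 2.53% of all genes were higher and 1.85% lower.

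Aldoc was higher in B2AR KO+PBS than in WT+PBS in 6 of 6 clusters, from 0.43 in the azurophil-granule progenitor-like to 1.39 in the specific-granule cluster, where WT+PBS had 18.1 CPM and B2AR KO+PBS 47.5 CPM. The interval of the azurophil-granule progenitor-like cluster included 0. Of 35 genes, 12 were above 0 in each cluster (Hk2, Gpi1, Pfkp, Aldoa, Aldoc, Tpi1, Gapdh, Pgk1, Pgam1, Pkm, Ldha and Pgls), as were 3.8% of all genes, and 0 were below 0 in each (5.32%). Smaller but frequent differences were thus spread over the enzymes of glycolysis. Here too the genes behind the shares of all genes were not matched to the members on depth. Slc2a3 was 0.45 (0.33 to 0.58) and Pfkp 0.45 (0.39 to 0.52), while G6pdx was -0.061 (-0.14 to 0.023) and Pgd 0.024 (-0.024 to 0.071).

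Levels also differed between cell classes. Over 6 clusters, 34 of the genes had UMIs in each, and the highest cluster was above the lowest by 1.31-fold (Pgd) to 26.8-fold (Slc16a1), with a median of 2.41-fold. For 18 of them the same cluster was highest in all 4 libraries, and for 22 the same cluster was lowest. The spread and these counts were not computed over all genes, so they do not set the members apart from other genes. With libraries pooled, the macrophage-like cluster was highest for 8 (Pfkp, Aldoc, Tpi1, Gapdh, Pgk1, Pgam1, Ldha and Pdk1) and the specific-granule cluster lowest for 9, of which Tpi1, Gapdh, Pgk1, Pgam1, Ldha and Pdk1 are shared. By library it was highest in 4 of 4 for Pfkp, Aldoc, Pgk1 and Pdk1, in 3 for Pgam1 and Ldha, in 2 for Tpi1 and in 1 for Gapdh. The glycolysis sum was 12838 CPM in the macrophage-like cluster (libraries 10263 to 13873), 11738 in the Matn2-led and 11588 in the Gpnmb-led cluster, and 8741, 7481 and 9597 in the azurophil-granule progenitor-like, specific-granule and mature neutrophil-like clusters. The pentose phosphate sum had the reverse end, with 2227 CPM in the azurophil-granule progenitor-like (libraries 2188 to 2260.4) and 1585 in the macrophage-like cluster (libraries 1506 to 1689). These are descriptions, and clusters were not tested against each other.

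**Figure D4:**
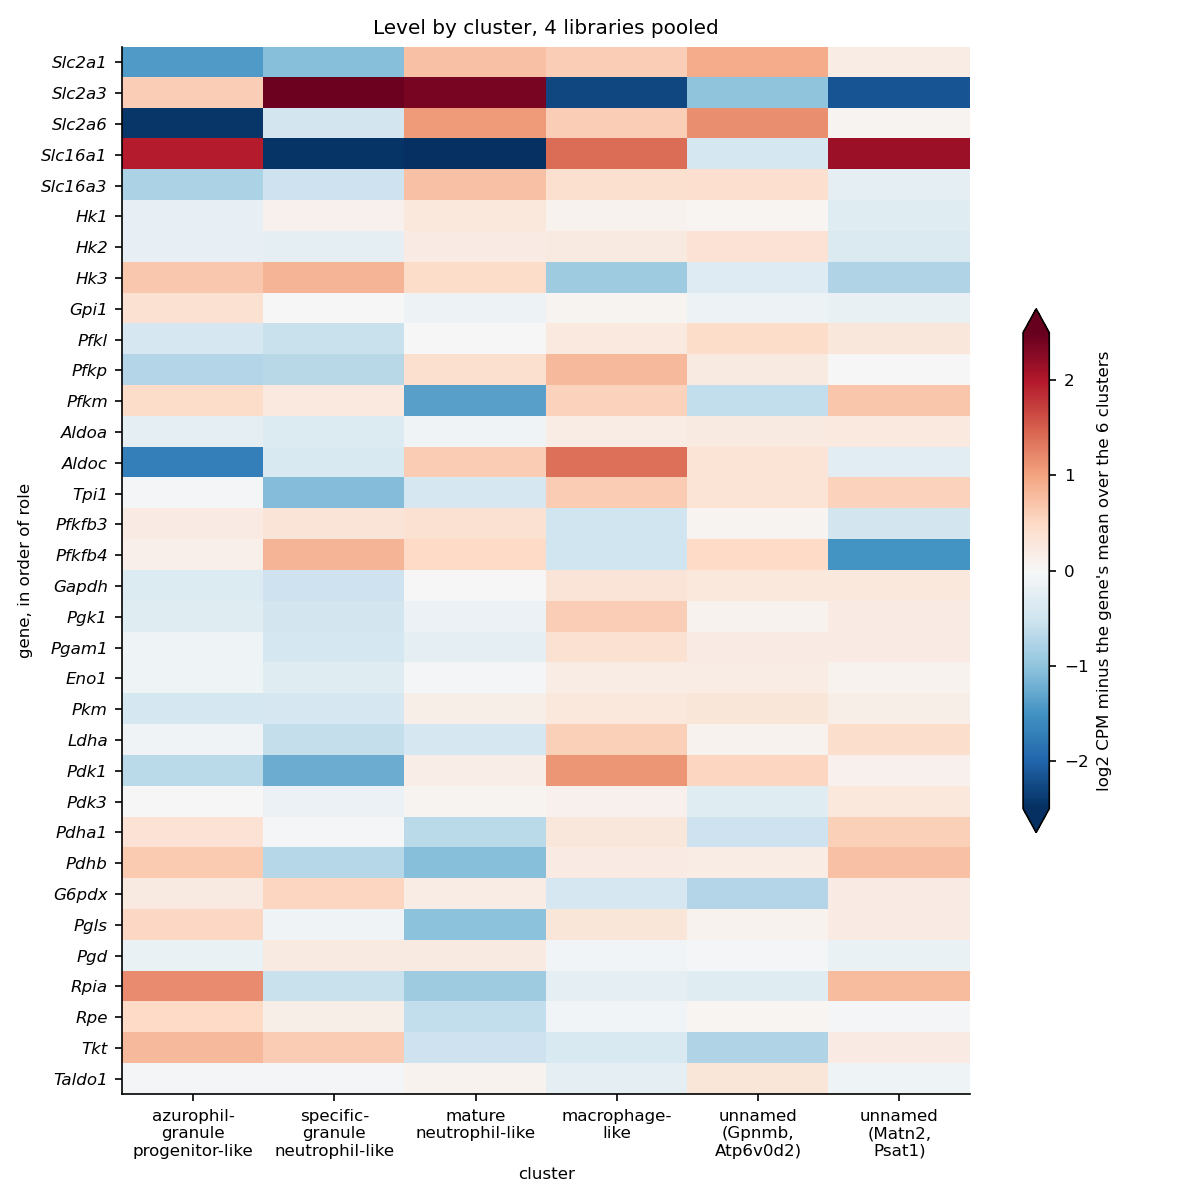
Level of 34 of the 36 genes in 6 clusters, 4 libraries pooled, as log2 CPM minus the mean of the gene over the 6 clusters (red above, blue below, colours saturate at the ends of the scale). The red blocks of Slc2a3 in the specific-granule and mature neutrophil-like clusters and of Slc16a1 in the azurophil-granule progenitor-like and Matn2-led clusters are the strongest, and most glycolysis enzymes are red in the macrophage-like cluster and blue in the specific-granule one.

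Isoforms and carriers were divided between the classes. Slc2a3 had 175 CPM in the specific-granule and 165 in the mature neutrophil-like cluster, and 6.59 in the macrophage-like cluster. The last is 3.78% of the first. The neutrophil granule genes Ltf and Ngp stood in the macrophage-like cluster at 1.01 and 1.36% of their specific-granule level, and the part of free RNA and of doublets in such low levels was not tested. Of the UMIs of the 3 glucose carriers, Slc2a3 took 77% (75.3 to 78.7%) in the specific-granule cluster and 4.19% (3.61 to 4.85%) in the macrophage-like cluster, where Slc2a1 took 75.8%. Slc16a1 had 20.03 CPM in the azurophil-granule progenitor-like cluster and 22.5 in the Matn2-led one, and 10 UMIs in the specific-granule and 6 in the mature neutrophil-like cluster (0.938 and 0.838 CPM). Aldoc took 6.09% (5.88 to 6.31%) of aldolase UMIs in the macrophage-like and 1.03% (0.925 to 1.14%) in the azurophil-granule progenitor-like cluster. Pdk1 took 43.4% of kinase UMIs in the macrophage-like and 15.5% in the specific-granule cluster, and Pdk3 nearly all of the rest.

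In CPM, 4 of the 5 carriers were higher in the mature neutrophil-like than in the azurophil-granule progenitor-like cluster by at least 2-fold. Of the 7 pentose phosphate enzymes, 4 were lower by at least 2-fold. Cells of the mature cluster held fewer UMIs (median 4590, against 16170.5), and CPM does not give amounts per cell. In the order azurophil-granule progenitor-like, specific-granule and mature, Slc2a1 had 29.1, 37.1 and 129 CPM, Slc2a6 3.79, 15.01 and 42.8 CPM and Slc16a3 92.8, 111 and 265 CPM. At 2-fold, with the same sign in all 4 libraries, 6 of 34 genes were higher in the mature cluster (Slc2a1, Slc2a3, Slc2a6, Slc16a3, Pfkp and Aldoc) where 13.8% of all genes were. Lower were 8 of 34 (Slc16a1, Ldhb, Pdha1, Pdhb, Pgls, Rpia, Rpe and Tkt), where 36.1% of all genes were. The count of higher genes is thus near the background and that of lower genes under it. Tkt had 847, 758 and 339 CPM, Pgls 261, 172 and 90.1 CPM and Rpia 27.9, 8.44 and 6.71 CPM, while Pgd had 276, 361 and 362 CPM and Taldo1 656, 665 and 719 CPM. Among the glycolysis enzymes Gapdh had 2522, 2218 and 3195 CPM, lowest in the specific-granule cluster, and Pkm 762, 781 and 1151 CPM.

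**Figure D5:**
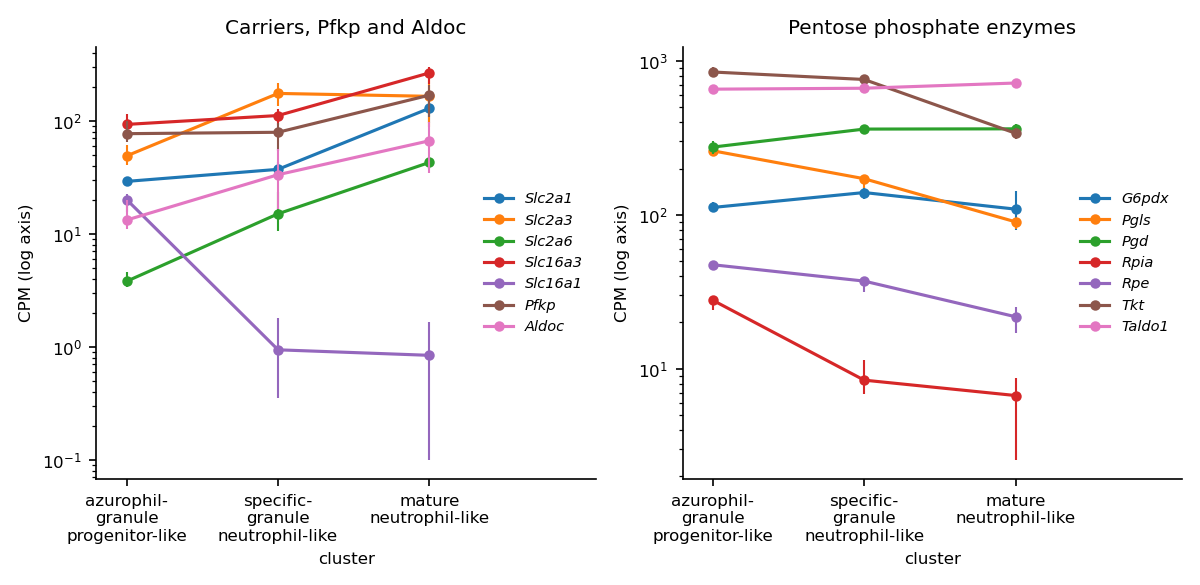
Pooled level in CPM, on a log axis, in the 3 neutrophil-like clusters, with vertical lines from the lowest to the highest library. The left panel shows the carriers with Pfkp and Aldoc, and the right panel the 7 pentose phosphate enzymes. Slc2a1, Slc2a6 and Slc16a3 are highest in the mature cluster, Slc16a1 is under 1 CPM in both later clusters (libraries at 0 are drawn at 0.1), and Tkt, Pgls, Rpia and Rpe are lowest in the mature cluster.

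A finer clustering is given for clusters of over 100 cells with libraries pooled. The glycolysis sum was highest, at 13764 CPM, in a fine cluster of 1146 cells led by Spp1, which led in 2 of 4 libraries, while the Gpnmb-led fine cluster of 324 cells led in WT+ISO and B2AR KO+ISO. The pooled minimum, 7136 CPM in a fine cluster of 465 cells led by Stfa3, held in 2 of 4 libraries. The fine cluster led by the macrophage marker C1qb (588 cells) held 10847.5 CPM of glycolysis enzymes. That is below the Gpnmb-led (13081), Lypd6b-led (11674) and Acta2-led (11392) fine clusters and above the Mpo-led (10109.5) and Retnlg-led (10004.4) ones. The C1qb-led cells thus did not hold the highest sum. Pfkp (314 CPM) and Pdk1 (66.2 CPM) were highest in them among these fine clusters. How the fine clusters map onto the macrophage-like cluster is not given here. The pentose phosphate sum was highest in a fine cluster of 863 cells led by Cpa6 (2269.9 CPM), in 3 of 4 libraries. Slc2a3 was highest in one of 779 cells led by Scrg1 (209.9 CPM), in 2 of 4 libraries. Slc16a1 was highest in one of 643 cells led by Mpo, at 34.3 CPM, in 4 of 4 libraries. The Gpnmb-led fine cluster held 125 CPM of Slc2a3, where the cluster of 1587 cells led by Acta2 held 11.1 CPM. The lower glycolysis sum with ISO in WT did not hold in every fine cluster. It was slightly higher in the Gpnmb-led one (WT+PBS 11565.2 CPM, WT+ISO 11860.2 CPM) and the Scrg1-led one (WT+PBS 6854.8 CPM, WT+ISO 6926.0 CPM). In the other fine clusters of over 100 cells it was lower with ISO, as in the Acta2-led one (WT+PBS 11109.8 CPM, WT+ISO 8889.87 CPM). The Gpnmb-led fine cluster of 324 cells is not the Gpnmb-led cluster of 1761 cells, whose sum was lower with ISO. No interval is given for these differences.

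A wider list of 65 other genes of the pathway and its control was counted in the same way. In WT, 43 had at least 100 UMIs, and with ISO 0 were higher by 0.5 and 3 lower, namely Eno3, the muscle enolase (-0.68), Pcx, pyruvate carboxylase (-0.65), and Egln3, an oxygen-sensing hydroxylase that marks HIF for breakdown (-0.72). Over all genes 6.81% were lower, about the share of 3 in 43. With fixed weights Egln3 alone stayed past 0.5, where 2.7% of all genes were lower and 1.92% higher. Between the libraries labelled B2AR KO, 1 of 43 was higher (Pfkfb1, a liver regulator of phosphofructokinase) and 1 lower (Eno3), where 1.04% of all genes were higher and 1.6% lower. In B2AR KO+PBS over WT+PBS 3 were higher (Pgm1, Egln3 and Txnip) and 0 lower, where 3.97% of all genes were higher and 2.59% lower. Pfkfb1, Pgm1 and Txnip were named after their values were seen.

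HIF-1 and Nrf2 are transcription factors known to raise glycolysis genes and NADPH-making genes respectively, and short lists of their other response genes were read beside the members (Egln3 and Me1 also stand in the wider list). Both lists were chosen with results of these data known, so their counts are descriptions. The HIF-1 list summed to 1515 CPM in WT+PBS, 1110.1 in WT+ISO, 1961 in B2AR KO+PBS and 1871 in B2AR KO+ISO, lowest in WT+ISO, with a WT ratio of -0.45 (-0.47 to -0.43). Of its 10 genes with enough UMIs 6 were lower by 0.5 (Bnip3, Ankrd37, Egln3, Ddit4, P4ha1 and Ndrg1), where 6.81% of all genes were, with a median of -0.66, and 8 were below 0 in each of 6 clusters (4.35% of all genes). With fixed weights 5 of the 10 were lower by 0.5, where 2.7% of all genes were. With ISO in the libraries labelled B2AR KO 0 of the 10 passed 0.5 (1.6% of all genes lower, 1.04% higher) and the sum ratio was -0.068 (-0.087 to -0.049). In B2AR KO+PBS over WT+PBS 4 were higher by 0.5 (3.97% of all genes), or 1 with fixed weights (2.53%). There 10 of 10 lay above 0, with a median of 0.37, where the median of all genes was -0.012.

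The Nrf2 list summed to 537 CPM in WT+PBS, 847 in WT+ISO, 532 in B2AR KO+PBS and 713 in B2AR KO+ISO. Its WT ratio was 0.66 (0.63 to 0.69) and that in the libraries labelled B2AR KO 0.42 (0.39 to 0.46), so it was higher with ISO in both. Of 7 genes with enough UMIs 4 were higher by 0.5 in WT (Nqo1, Gclm, Hmox1 and Srxn1), where 1.76% of all genes were. In each of 6 clusters 7 of 7 were above 0 (6.29% of all genes), and with fixed weights 6 of the 7 were higher by 0.5 (1.92%). In the libraries labelled B2AR KO 1 of the 7, Hmox1, was higher by 0.5, where 1.04% of all genes were. Nqo1, a quinone reductase, had 5.62, 13.5, 5.50 and 7.39 CPM in the order WT+PBS, WT+ISO, B2AR KO+PBS and B2AR KO+ISO, and Gclm, a subunit of the enzyme that starts glutathione synthesis, had 187, 366, 192 and 248 CPM. The members that make NADPH, G6pdx and Pgd, were highest in the same library. Whether either factor has a part in the members' values was not tested.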

How the data were processed

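Single-cell RNA-seq was measured in 4 libraries. The authors deposited 1 matrix of raw UMI counts per library, made with Cell Ranger (7.0.0 per the file headers, 6.0.0 per the submitters' processing notes) on mm10, and the notes also name Seurat. Whether introns were counted, and the rule that assigned barcodes to libraries, are not given in the sources used here. Groups follow the sample titles. The treatment field names isoproterenol for all 4 samples, against the titles and the study's methods, and PBS is named by those methods alone.

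A cell entered with 200 genes or more and a mitochondrial share of its UMIs up to 10%, which 9303 of 9525 met, and the 12 tag features were left out. No doublet caller was run. Kept libraries held 24393687 (WT+PBS), 29400468 (WT+ISO), 28555811 (B2AR KO+PBS) and 19357824 (B2AR KO+ISO) UMIs. B2AR KO+ISO held 9 deposited cells led by a tag other than the one that led most of its cells. Cells were clustered with scanpy 1.11.5 (2000 variable genes, 30 components, 15 neighbours, Leiden resolution 0.4, and 1 for the finer clustering). UMIs were summed per library, divided by the library total and compared as log2 ratios with exact binomial intervals, or as CPM with exact Poisson intervals (95%, scipy 1.17.1). Fixed weights are each cluster's share of all UMIs. Intervals of fixed-weight ratios and of differences between 2 ratios are normal approximations from the counts, not exact ones. Genes with at least 100 UMIs over both libraries were counted past a log2 ratio of 0.5. With 1 library per group no test was made. The targeted gene is not reported here. The ratio code was tested on simulated data. The 2 rows named Aldoa were summed for its values, and the second held at most 1 UMI per library.

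All 36 genes are named, and genes of the wider list where they passed 100 UMIs and 0.5 with ISO in WT. The members and lists were chosen with earlier results of these data known. Alternatives were other cell filters, scalings, weights, thresholds and cluster settings.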

Additional observations from a re-analysis of the deposited data

Results flagged for a closer look

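For 2 of the 36 genes the response to ISO had opposite signs in the WT libraries and in the libraries labelled B2AR KO, with both counting intervals clear of 0, and differed by over 0.5. The difference was not tested, since each group is 1 library. The share of all genes that meet the same rule was not computed, so the count of 2 does not set the members apart from other genes. Slc2a1, the gene of GLUT1, stood at a log2 ratio (ISO over PBS) of -0.49 (-0.59 to -0.39) in WT and 0.14 (0.056 to 0.22) in the libraries labelled B2AR KO, a difference of -0.63. Aldoc, the brain-type aldolase, had -0.50 (-0.64 to -0.36) and 0.10 (0.0079 to 0.20), a difference of -0.60. With fixed weights the WT ratios were -0.27 for Slc2a1 and -0.19 for Aldoc, and the others 0.14 and 0.13. The differences were then -0.41 and -0.32, both under 0.5 in size. With ISO in WT Slc2a1 was below 0 in 6 of 6 clusters. Aldoc was below 0 in 4 of 6 and above 0 in 2, with 1 interval on each side.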

How the results depend on the processing

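No paired analysis was possible because all 4 groups consist of a single library. The WT ratios of both sums kept their sign under all 9 alternatives tried for each. In the order ISO in WT, ISO in the libraries labelled B2AR KO, and B2AR KO+PBS over WT+PBS, the glycolysis log2 ratio was -0.17, 0.0059 and 0.21 with clusters at fixed weights, -0.17, 0.0056 and 0.26 with median-of-ratios size factors, and -0.25, 0.022 and 0.27 with equal weight per cell. With totals without the 20 most abundant genes the first 2 were -0.17 and 0.028. With equal weight per gene the last 2 were 0.0083 and 0.20, and without Gapdh the second was 0.00071. The pentose phosphate ratio was 0.12, 0.038 and 0.049 at fixed weights. For ISO in WT it was 0.22 with median-of-ratios size factors, 0.21 without the 20 most abundant genes, 0.19 with equal weight per cell and 0.19 without Taldo1. For ISO in the libraries labelled B2AR KO it was 0.10 without the 20 most abundant genes and 0.091 with equal weight per gene, and for B2AR KO+PBS over WT+PBS 0.020 with equal weight per cell and -0.036 with equal weight per gene. Of the genes past 0.5 with ISO in WT, 0 were left at fixed weights and 0 at a log2 ratio of 1, and 4 were counted under the stricter cell filter, which added Slc2a1 and Aldoc. In the libraries labelled B2AR KO 1, Ldhb, was counted at a minimum of 20 UMIs. For B2AR KO+PBS over WT+PBS 1, Aldoc, passed 1. Keeping cells led by their library's own tag, an alternative chosen after seeing the data, left each sum within its interval and each count as it was. Fixed weights turned the sign of 4 of 35 genes with ISO in WT (Slc2a3, Slc2a6, Pfkfb3 and Pgls). Depth limits Pdk2, Ldhb and Pfkm.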
